A study of Mus musculus with 8 samples.

Results

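The C/EBP transcription factors, the stress-induced factor CHOP, the Tribbles pseudokinases and the small stress protein Nupr1 were examined in the embryonic mouse heart as 9 genes: Cebpa, Cebpb, Cebpd, Cebpg, Ddit3 (which encodes CHOP), Trib1, Trib2, Trib3 and Nupr1. They were taken by gene symbol from a table of 52778 genes, and were chosen with earlier results of these data known. The table gives expression in TPM (a length-corrected share of each library's transcripts) for 8 RNA-seq libraries of ventricular heart tissue at embryonic day 11.5, from C57BL/6 mice under baseline conditions with no treatment. The 4 control libraries are labelled as controls, with no genotype other than C57BL/6 WT. The 4 mutant libraries are labelled Atf4(del7/del7) and global knockout: both Atf4 copies lack 7 bases of exon 3, removed with CRISPR/Cas9, which shifts the reading frame and leaves the polyadenylation signal in place. It is a single allele and, being labelled global, is not restricted to the heart. The labels call the libraries biological replicates but do not say whether each is 1 embryo or a pool of hearts. If they are not separate animals, the p-values measure only the spread between libraries. The labels also disagree with one another: the library names of controls as well as mutants contain 7del, the mutants' genotype field reads WT, and a sample protocol describes cortical neurons and ribosomal RNA depletion where the series design describes heart tissue and a stranded mRNA kit. All libraries carry batch label 1.

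C/EBP proteins are basic leucine zipper (bZIP) factors that bind DNA as dimers. C/EBPα, C/EBPβ and C/EBPδ drive differentiation, acute phase and metabolic genes, whereas C/EBPγ lacks an activation domain and serves mainly as a dimer partner, including for ATF4. CHOP is a C/EBP relative that dimerises with C/EBP factors and ATF4 in the integrated stress response, in which ATF4 raises transcription of genes for amino acid supply and stress adaptation. Tribbles proteins are pseudokinases: Trib1 and Trib2 bring C/EBPα to the ubiquitin ligase COP1 for degradation, and Trib3, itself a target of ATF4 and CHOP, feeds back on them. Ddit3, Trib3, Cebpg, Cebpb and Nupr1 are known from other systems to be induced by ATF4.

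The C/EBP-ATF composite element, written TGATGNAA, is the sequence through which ATF4 and C/EBP dimers act on stress genes, so the members' promoters were searched for it on both strands. RefSeq promoter sequences (GRCm38.p6, 250 bases before to 50 bases after the start) were matched for 7 of the 9 genes, all but Trib1 and Cebpd. The RefSeq start used for Trib2 lies downstream of the start in the table, so 177 bases of its window before the start fall inside the gene as placed below. The element was found in 2 of these 7, Nupr1 and Trib3, and in 1304 of 32851 promoters in all, or 3.97%. The 30 bases around each match are shown 5′ to 3′ on the gene's strand, with the match in capitals. Both lie on the opposite strand, where they read TGATGCAA in Nupr1 and TGATGTAA in Trib3.
Nupr1, chr7:126625562-126625591, minus strand: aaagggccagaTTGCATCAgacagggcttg
Trib3, chr2:152344028-152344057, minus strand: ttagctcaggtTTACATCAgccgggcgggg
The Nupr1 match begins 110 bases before the start and the Trib3 match at base 15 of the transcript. With the 250 bases before the start alone, 1 of the 7 genes held the element, against 3.45% of promoters. None of the 7 held the C/EBP palindrome TTGCGCAA (0.183% of promoters), the cAMP response element TGACGTCA (1.79%) or the endoplasmic reticulum stress element (CCAAT, any 9 bases, then CCACG; 0.119%), each searched on both strands. These are matches of letters within the stated window, sequence outside it was not searched, and no binding was measured. The 250 bases before the start are shown for Nupr1, which holds a match, and for Cebpb, which had the smallest p-value among the members and holds none of the motifs.
Nupr1, chr7:126625471-126625720, minus strand: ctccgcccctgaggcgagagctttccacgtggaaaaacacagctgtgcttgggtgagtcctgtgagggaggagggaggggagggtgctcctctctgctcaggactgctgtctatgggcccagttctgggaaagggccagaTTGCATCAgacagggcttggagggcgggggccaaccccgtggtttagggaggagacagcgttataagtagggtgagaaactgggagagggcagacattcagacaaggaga
Cebpb, chr2:167688665-167688914, plus strand: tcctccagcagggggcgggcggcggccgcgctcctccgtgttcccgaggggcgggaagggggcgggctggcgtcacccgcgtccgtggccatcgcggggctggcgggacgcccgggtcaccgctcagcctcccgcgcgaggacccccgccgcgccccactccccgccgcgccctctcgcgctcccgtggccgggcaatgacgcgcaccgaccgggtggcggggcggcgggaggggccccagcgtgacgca
The 2 windows differ in base composition, with 59.2% G and C in Nupr1 and 81.6% in Cebpb.

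Across the libraries the TPM values summed to between 923473 and 949762, and between 15380 and 15584 genes reached 1 TPM. The read depth behind these values is not known, because TPM does not keep it. The targeted gene, Atf4, measured 105, 121, 115 and 105 TPM in controls and 166, 164, 185 and 148 TPM in mutants. All 4 mutants lay above all 4 controls, and the log2 fold change was 0.57 (SE 0.071; limma, adjusted p = 0.0430). TPM over the whole gene does not read the 7-base deletion, so this level does not test the genotype. The 6 genes past the threshold over the whole table, Atf4 among them, became 0 when control 2, 3 or 4 was left out and 1 to 3 when any other single library was. Summed levels of cardiomyocyte markers were 38700 to 40260 TPM in controls and 37360 to 39830 TPM in mutants, with Actc1 and Myl2 the most abundant, so markers of the labelled tissue were present at high levels. Neuronal markers summed to 15.7 to 21.7 TPM in controls and 17.3 to 19.0 TPM in mutants, and 7 of the 12 never reached 1 TPM. Each gene was tested with limma on log2(TPM + 1), a scale that understates changes of low genes. The test ran over the 15545 genes that reached 1 TPM in 4 or more libraries, with Benjamini-Hochberg adjustment over all of them.

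No member passed the test. Of the 9 genes, 7 were tested and 0 had an adjusted p under 0.05, against 6 of 15545 genes, or 0.0386%, over the whole table. The values of Cebpb lay highest in the mutants relative to controls and those of Trib3 lowest among tested members, but both groups overlapped for every member. At an unadjusted p under 0.05 the members gave 1 of 7, Cebpb, where all genes gave 6.1% (2.65% higher in mutants and 3.45% lower). Groups that did not overlap occurred in 0 of 9 members and in 3.68% of all tested genes. In exact permutation tests, whose smallest possible p with 4 against 4 is 0.0286, none of the 9 reached 0.05. Mean levels were higher in mutants for 2 members, Cebpb and Cebpd, and lower for 7. Over all tested genes 7490 were higher and 8055 lower, with a median log2 fold change of -0.0033.

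**Figure D1:**
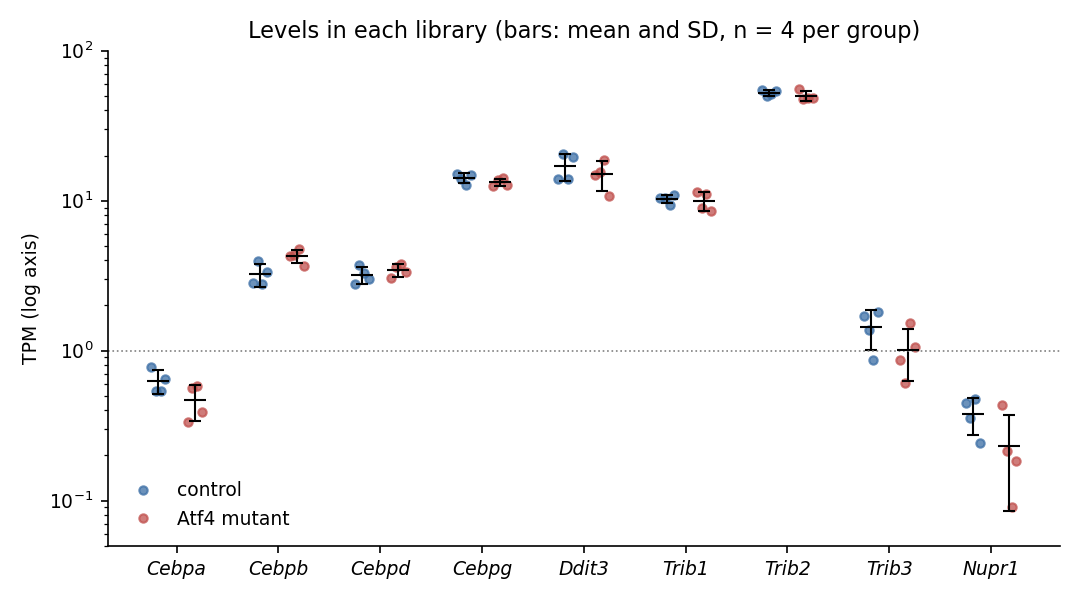
TPM of the 9 genes in each library on a log axis, controls in blue and Atf4 mutants in red, with the mean and SD of 4 libraries per group and a dotted line at 1 TPM. The groups overlap for every gene, and Trib2 stands highest at about 50 TPM while Cebpa and Nupr1 stay under 1 TPM.

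The levels, which TPM makes comparable between genes, spanned a wide range in both groups. Trib2 was highest at 52.4 ± 2.32 TPM in controls (SD, n = 4). Ddit3 (17.0 ± 3.58 TPM) and Cebpg (14.2 ± 1.06 TPM) came next, and their ranges overlapped in both groups. Trib1 followed at 10.3 ± 0.633 TPM. Cebpb (3.22 ± 0.547 TPM) and Cebpd (3.20 ± 0.395 TPM) were alike in controls, then came Trib3 at 1.43 ± 0.425 TPM. Cebpa (0.626 ± 0.115 TPM) and Nupr1 (0.379 ± 0.106 TPM) were lowest, and their ranges overlapped in mutants but not in controls.

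Cebpb encodes C/EBPβ, an activator that responds to cytokines and stress, and lies in a single exon on chr2:167688915-167690432, plus strand (GRCm38). It measured 2.83, 3.95, 2.77 and 3.34 TPM in control replicates 1 to 4 and 4.30, 4.36, 4.75 and 3.65 TPM in mutant replicates 1 to 4. Mutants 1, 2 and 3 lay above the highest control, whereas mutant 4 lay below control 2. The mutant mean was 4.27 ± 0.455 TPM (SD, n = 4), 1.32 times the control mean. The log2 fold change was 0.32 (SE 0.11, 95% interval 0.07 to 0.57; limma, unadjusted p = 0.0166, adjusted p = 0.780), and the exact permutation p was 0.0571, two-sided. Cebpb ranked 330th of 15545 genes by p. Its unadjusted p stayed between 0.0045 and 0.0483 in all 16 limma alternatives in which it was tested, and its adjusted p passed the threshold in none.

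Cebpd encodes C/EBPδ, another inducible activator, and is also a single exon (chr16:15887286-15889545, plus strand). It measured 2.79, 3.71, 3.28 and 3.00 TPM in controls and 3.04, 3.60, 3.77 and 3.33 TPM in mutants. The groups overlapped almost fully, with only mutant 3 above the highest control. The log2 fold change was 0.08 (SE 0.097, 95% interval -0.14 to 0.30; limma, adjusted p = 0.942). Its last 322 bases are shared with Spidr on the opposite strand (15.0 ± 1.33 TPM in controls, 15.7 ± 1.29 TPM in mutants). Whether the authors counted by strand is not given in the sources used here, so reads of the shared stretch cannot be assigned.

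Cebpa encodes C/EBPα, the factor of adipocyte, hepatocyte and myeloid differentiation and the target of Trib1 and Trib2 (chr7:35119293-35121928, plus strand). It stayed under 1 TPM in every library and so was not in the limma test. The controls measured 0.780, 0.541, 0.535 and 0.645 TPM and the mutants 0.332, 0.567, 0.580 and 0.388 TPM. Mutants 1 and 4 lay below the lowest control and the other 2 within the control range (difference of mean log2(TPM + 1) -0.15, exact permutation p = 0.171). With a pseudocount of 0.1 the difference was -0.37 (exact permutation p = 0.171).

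Cebpg, for the dimer partner C/EBPγ (2 exons, chr7:35046422-35056566, minus strand), was the most abundant C/EBP gene. It measured 15.1, 14.0, 12.8 and 14.9 TPM in controls and 12.6, 13.7, 14.1 and 12.6 TPM in mutants. Mutants 1 and 4 lay just under the lowest control. The limma log2 fold change was -0.09 (SE 0.067, 95% interval -0.24 to 0.06, adjusted p = 0.894). Cebpg shares 1084 bases with Gm45095 on the opposite strand (0.237 ± 0.115 TPM in controls, 0.257 ± 0.0968 TPM in mutants). The part of those reads in the Cebpg values was not tested.

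Summed over Cebpa, Cebpb, Cebpd and Cebpg, C/EBP transcripts came to 21.3 ± 1.29 TPM in controls and 21.4 ± 1.53 TPM in mutants (SD, n = 4). Cebpg made up 66.9 ± 3.05% of the sum in controls and 61.9 ± 1.02% in mutants. Cebpb made up 15.1 ± 1.97% and 19.9 ± 1.26%. As parts of the same sum, a higher share of 1 gene lowers the others, and the shares were not tested. The ratio of Cebpb to Cebpd was 1.01 ± 0.116 in controls and 1.25 ± 0.130 in mutants, and the groups overlapped, with mutant 4 (1.10) below control 4 (1.11).

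**Figure D2:**
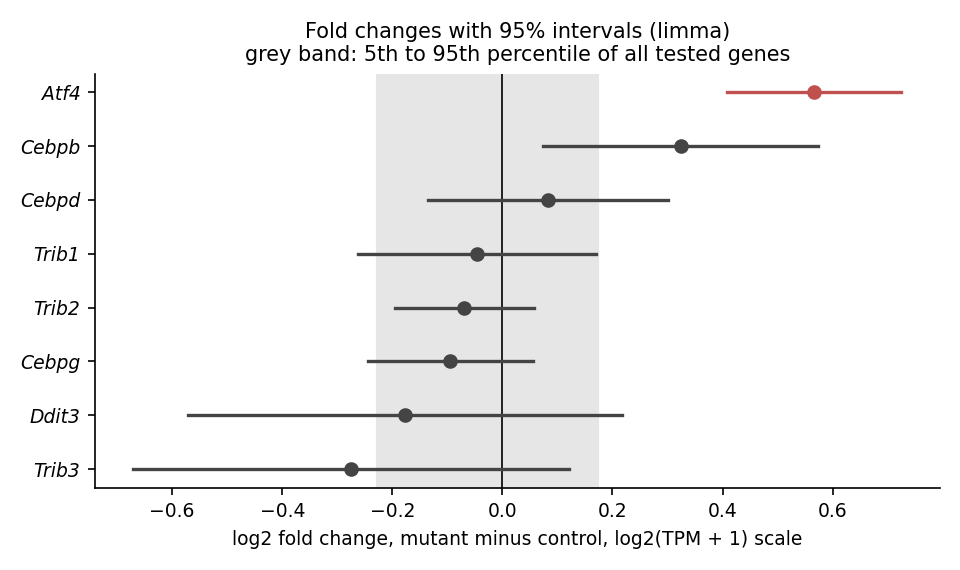
Log2 fold change (mutant minus control, log2(TPM + 1) scale) of the 7 tested members and Atf4, with 95% intervals from limma, over a grey band for the 5th to 95th percentile of all tested genes (-0.228 to 0.174). Atf4, in red, has an adjusted p under 0.05, and the interval of Cebpb (0.07 to 0.57) does not reach 0 before adjustment.

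Ddit3 encodes CHOP, a bZIP factor that pairs with C/EBP proteins and promotes cell death under prolonged stress (4 exons, chr10:127290793-127296291, plus strand). It measured 13.9, 20.6, 14.0 and 19.6 TPM in controls and 14.8, 15.5, 18.8 and 10.7 TPM in mutants. Controls 2 and 4 were the highest and mutant 4 the lowest, and the other mutants lay within the control range. The mutant mean was 15.0 ± 3.33 TPM, and the log2 fold change was -0.18 (SE 0.18, 95% interval -0.57 to 0.22; limma, adjusted p = 0.929; exact permutation p = 0.543). The spread of Ddit3 between libraries was the widest of the tested members after Trib3, with a coefficient of variation of 21.0% in controls and 22.3% in mutants. Without mutant 4 the log2 fold change was -0.04, without control 2 it was -0.08, and without control 4 it was -0.11. Without mutant 3 it was -0.29.

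Both ends of Ddit3 are shared with genes on the opposite strand. At its start 77 bases overlap Mbd6 (38.9 ± 2.95 TPM in controls, 37.1 ± 2.54 TPM in mutants). At its end 71 bases overlap the 3′ end of Mars1, the methionyl-tRNA synthetase gene. Mars1 measured 48.1, 45.7, 45.9 and 48.2 TPM in controls and 40.8, 38.0, 38.0 and 36.5 TPM in mutants. The Mars1 groups did not overlap, and its log2 fold change was -0.29 (SE 0.043; limma, adjusted p = 0.140). The part of reads from the shared bases in the Ddit3 values was not tested.

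**Figure D3:**
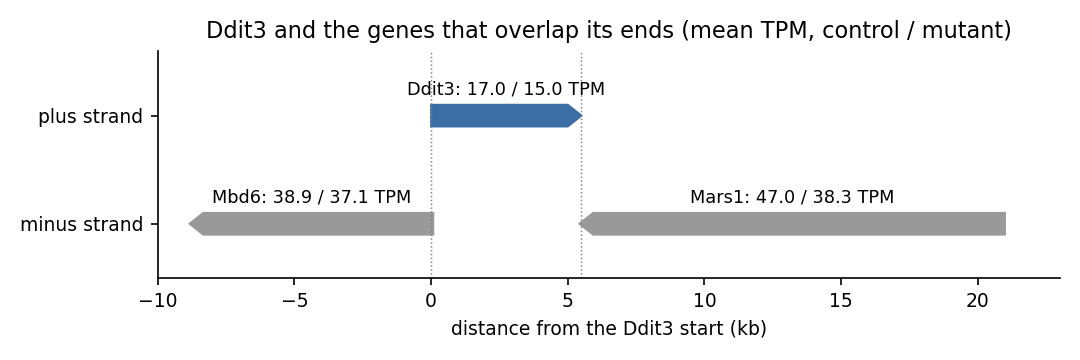
Ddit3 (plus strand) and the 2 minus-strand genes that overlap its ends, drawn to scale as distance from the Ddit3 start in kb, with mean TPM in controls and mutants. Mbd6 shares 77 bases with the start and Mars1 shares 71 bases with the end.

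Cebpb and Ddit3 encode dimer partners, and their levels were set against each other after their values had been seen. The Cebpb to Ddit3 ratio was 0.204, 0.192, 0.198 and 0.170 in controls and 0.290, 0.281, 0.253 and 0.342 in mutants. The groups did not overlap, at 0.191 ± 0.0147 in controls and 0.291 ± 0.0371 in mutants (SD, n = 4). Of the 21 ratios among the 7 tested members, 2 gave groups without overlap: this one and Cebpb to Cebpg (0.227 ± 0.0395 in controls, 0.322 ± 0.0237 in mutants). Both involve Cebpb, which enters 6 of the 21. Over all tested genes, 74 of 15533, or 0.476%, had a ratio to Ddit3 without overlap, 5.62% had a ratio to Cebpg without overlap and 21.7% a ratio to Cebpb without overlap. The 2 of 6 Cebpb ratios therefore stand beside a high share for Cebpb against genes at large. A scaling factor per library cancels in such a ratio. Among mutants the order of the libraries was the same for both genes (4, 1, 2, 3 from low to high), and among controls it differed by the exchange of replicates 1 and 3, which were close in both genes.

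**Figure D4:**
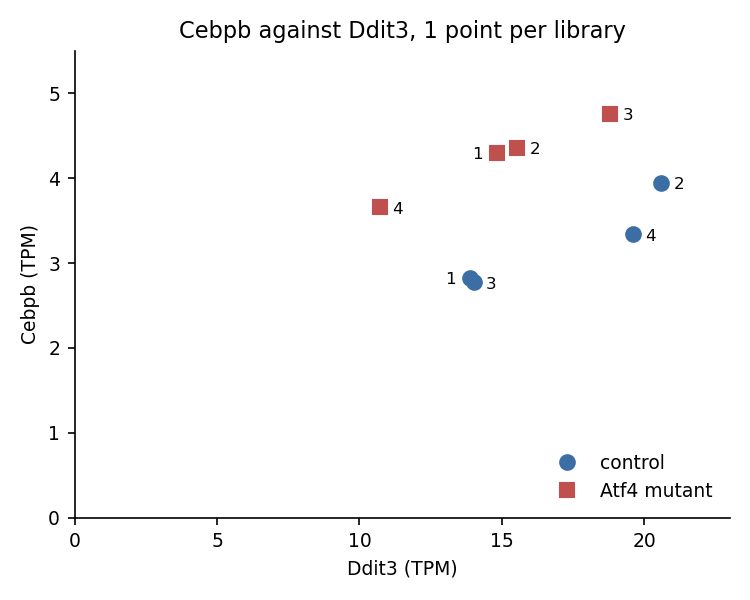
Cebpb against Ddit3 in TPM, 1 point per library, controls as blue circles and Atf4 mutants as red squares, with the replicate number beside each point. Mutants 1, 2 and 3 lie above all controls on the Cebpb axis, and the ratio of Cebpb to Ddit3 runs from 0.170 to 0.204 in controls and from 0.253 to 0.342 in mutants.

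Of the 21 correlations of log2(TPM + 1) between tested members over the 8 libraries, 2 had an unadjusted permutation p under 0.05 and 0 after Benjamini-Hochberg adjustment. Cebpd and Trib2 gave Pearson's r = -0.87 (exact permutation p = 0.0092, adjusted p = 0.193) and Spearman's rho = -0.81 (exact permutation p = 0.0218, adjusted p = 0.386). Without the 2 libraries farthest from the median of Cebpd, r was -0.84. Mutant 1, which stood apart in Trib2, was not among those left out. The other pair, Cebpg and Trib3, gave Pearson's r = 0.76 (exact permutation p = 0.0355, adjusted p = 0.373). Its Spearman's rho was 0.76 (exact permutation p = 0.0368, adjusted p = 0.386). The same libraries enter every pair.

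Trib2 encodes a pseudokinase that hands C/EBPα to COP1 (3 exons, chr12:15791725-15816962, minus strand) and was the most abundant member. It measured 54.4, 49.6, 51.4 and 54.3 TPM in controls and 55.7, 47.9, 48.0 and 48.4 TPM in mutants. Mutants 2, 3 and 4 lay below every control, while mutant 1 lay above every control. The log2 fold change was -0.07 (SE 0.056, 95% interval -0.20 to 0.06; limma, adjusted p = 0.908). Without mutant 1 it was -0.12 (limma, unadjusted p = 0.0218, adjusted p = 0.719). Over the 17 limma alternatives the unadjusted p of Trib2 ran from 0.0218 to 0.445, and only this 1 was under 0.05.

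Trib1, the paralog with the same C/EBPα-degrading activity (chr15:59648654-59657099, plus strand), measured 10.4, 10.4, 9.38 and 10.9 TPM in controls and 11.4, 8.93, 11.1 and 8.55 TPM in mutants. Mutants 1 and 3 were above all controls and mutants 2 and 4 below all controls, so the mutants spread more widely around a similar mean (9.98 ± 1.45 TPM against 10.3 ± 0.633 TPM). The log2 fold change was -0.05 (SE 0.096; limma, adjusted p = 0.972), and without mutant 4 it was 0.02.

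Trib3, the stress-inducible Tribbles gene (4 exons, chr2:152337425-152344060, minus strand), measured 1.70, 1.36, 0.861 and 1.80 TPM in controls and 0.865, 0.609, 1.53 and 1.05 TPM in mutants. It reached 1 TPM in 3 controls and 2 mutants, so it lay close to the limit for testing. Mutant 2 was the lowest library, and the rest lay within the control range. The mutant mean was 1.01 ± 0.389 TPM against 1.43 ± 0.425 TPM, with a log2 fold change of -0.27 (SE 0.18, 95% interval -0.67 to 0.12; limma, adjusted p = 0.873). With a pseudocount of 0.1 in place of 1 the log2 fold change was -0.48 (limma, adjusted p = 0.878). Without mutant 2 it was -0.17.

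The Tribbles genes together came to 64.1 ± 3.00 TPM in controls and 61.0 ± 4.82 TPM in mutants. Trib2 made up 81.8 ± 1.17% of that sum in controls and 82.0 ± 1.97% in mutants, while Trib3 made up 2.22 ± 0.582% and 1.67 ± 0.652%.

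Nupr1 encodes a small chromatin-associated stress protein (3 exons, chr7:126623246-126625470, minus strand). It measured 0.446, 0.354, 0.477 and 0.241 TPM in controls and 0.432, 0.212, 0.091 and 0.184 TPM in mutants. Mutants 2, 3 and 4 lay below every control, while mutant 1 was among the control values. The difference of mean log2(TPM + 1) was -0.17 (exact permutation p = 0.143), and with a pseudocount of 0.1 it was -0.61 (exact permutation p = 0.114). At these levels Nupr1 was outside the limma test. Gm39087, on the opposite strand, overlaps all 2225 bases of Nupr1. It measured 0.0633 ± 0.127 TPM in controls and 0.0158 ± 0.0316 TPM in mutants, with a highest library of 0.253 TPM. The part of its reads in the Nupr1 values was not tested.

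Genes with the pattern most like a member were sought among 11616 tested genes with a mean of at least 5 TPM, by Pearson's r over the 8 libraries, as a description. For Ddit3 they were Igf1r (r = 0.967) and Flt4 (r = 0.965). For Cebpg they were Prpf4b (r = 0.986) and Iffo1 (r = 0.963). Trib1 was most like Gusb (r = 0.965) and Actr1b (r = 0.964), and Trib2 most like Gm15163 (r = 0.985) and Cst3 (r = 0.965). An r over 0.9 was reached by 57 genes for Ddit3, 11 for Cebpg, 89 for Trib1 and 37 for Trib2. As the highest values among many genes, these correlations were not tested.

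The genes around the members were read from lists, described here by counts and medians beside the all-gene median of -0.0033. Some genes enter several lists, so the lists are not separate readouts. Atf5 is counted among bZIP partners, CHOP targets and ATF4 targets, and Sesn2 among CHOP and ATF4 targets. Dnajb9 is counted among CHOP targets and unfolded protein response genes. Leaving out 1 library changed the sign of the median for bZIP partners, adipocyte and metabolic targets, Nupr1 partners and immediate early genes, so these medians have no stable direction. Of 16 tested bZIP partners 8 were higher and 8 lower (median log2 fold change -0.0048), and the 1 past the threshold was Atf4 itself. Atf3, a stress-induced bZIP partner of CHOP and the immediate early gene with the smallest p, measured 16.4 ± 0.350 TPM in controls and 13.4 ± 1.63 TPM in mutants without overlap (limma, adjusted p = 0.742). Among 11 tested CHOP target genes 3 were higher and 8 lower, with a median of -0.08 and none past the threshold. That median was -0.15 without control 3, -0.05 without control 2, -0.04 without control 4, -0.02 without mutant 4 and -0.0096 without mutant 2. Atf5, a CHOP-induced factor, measured 24.2 ± 1.56 TPM in controls and 20.7 ± 2.37 TPM in mutants (log2 fold change -0.22; limma, adjusted p = 0.800).

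Many targets of the C/EBP activators stayed below the limit for testing. Of 18 acute phase and cytokine targets of C/EBPβ and C/EBPδ, 15 never reached 1 TPM in any library, and the 3 tested had a median of -0.13. The median was -0.06 without mutant 4 and -0.00036 with no filter, which takes in the genes near 0. Ptx3, an acute phase pattern receptor, measured 4.01 ± 0.918 TPM in controls and 3.28 ± 0.532 TPM in mutants (limma, adjusted p = 0.890). Of 14 adipocyte and metabolic targets 7 were tested, 2 higher and 5 lower, with a median of -0.0023. Igf1 measured 26.8 ± 1.12 and 25.2 ± 0.938 TPM (limma, adjusted p = 0.847). The other C/EBP-named genes tested, Cebpz and Cebpzos, are not bZIP factors. Their log2 fold changes were -0.00078 (SE 0.042) and -0.09 (SE 0.15), with a median of -0.05.

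Tribbles partners, which include COP1-complex and MAP kinase genes, gave 15 higher and 3 lower of 18 with a median of 0.04 (0.02 without mutant 1) and none past the threshold. Map2k1, encoding the kinase MEK1 that Tribbles proteins bind, measured 74.9 ± 3.50 TPM in controls and 82.2 ± 3.78 TPM in mutants (limma, adjusted p = 0.783). Nupr1 partners and related genes gave 4 higher and 2 lower of 6, with a median of 0.0070. Among 19 tested immediate early genes 12 were higher and 7 lower, with a median of 0.03 and none past the threshold.

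Among ATF4 target genes, a fall passed the test for several. The list is mainly of amino acid metabolism but also holds genes such as Atf5, Ddit4, Stc2 and Vegfa. Of 31 tested, 25 were lower and 6 higher, with a median of -0.13, and 4 fell: Phgdh of serine synthesis, the tRNA synthetase genes Iars and Cars, and the mitochondrial folate gene Aldh1l2. Phgdh went from 61.2 ± 1.90 to 44.1 ± 1.93 TPM (log2 fold change -0.46; limma, adjusted p = 0.0088). This list, like the others, was chosen with earlier results of these data known, so the direction of a list is not independent evidence. None of the 4 passed the threshold without control 2, 3 or 4. Among 22 tested unfolded protein response genes 19 were higher and 3 lower, with a median of 0.07 and none past the threshold. At an unadjusted p under 0.05, 7 of the 22 were higher, against 2.65% of all tested genes, and 0 lower. By the same measure 15 of the 31 ATF4 target genes were lower, against 3.45% of all tested genes, and 0 higher. Manf, an endoplasmic reticulum stress factor, measured 206 ± 12.3 and 231 ± 10.3 TPM (limma, adjusted p = 0.748).

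**Figure D5:**
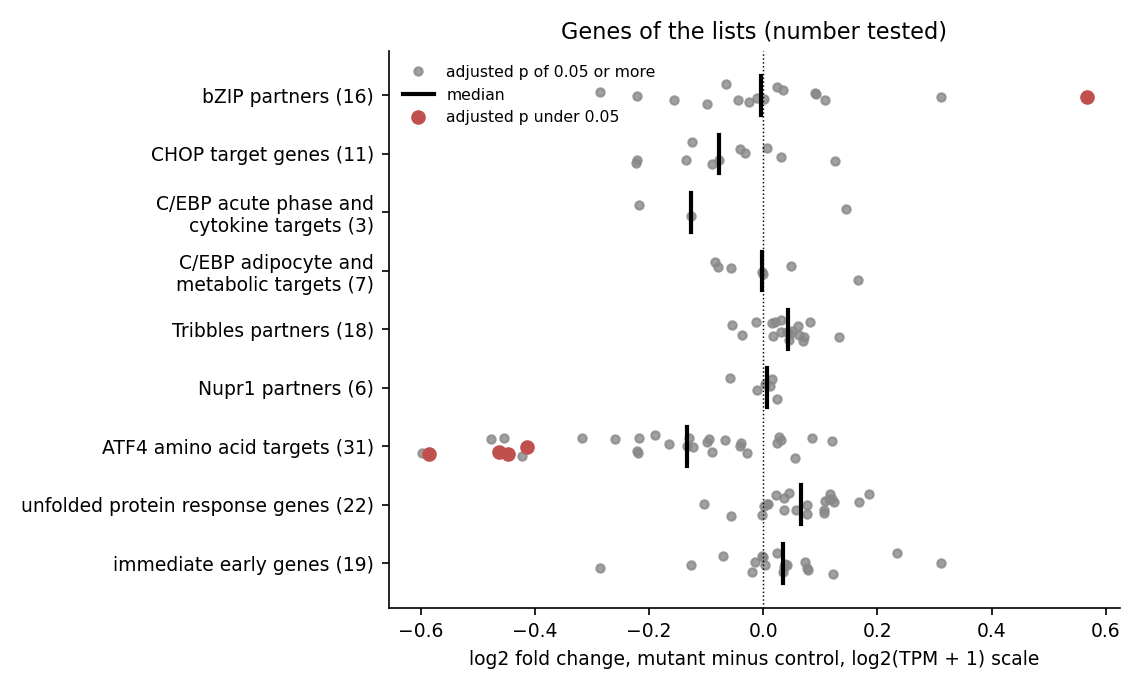
Log2 fold change (mutant minus control, log2(TPM + 1) scale) of each tested gene in 9 pathway lists with at least 3 tested genes, with the number tested in brackets and the median as a black bar. Red points have an adjusted p under 0.05: Atf4 among bZIP partners and 4 ATF4 amino acid targets.

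C/EBP genes are expressed in macrophages, so macrophage markers were read beside them. The summed level of 12 markers was 30.8, 28.0, 22.5 and 18.1 TPM in controls and 15.7, 11.1, 14.7 and 18.4 TPM in mutants, so mutants 1, 2 and 3 lay below every control and mutant 4 just above control 4. Mean levels were lower in mutants for 11 of the 12 markers, Aif1 being the exception, and none was at 0 in all libraries. The 2 markers that reached 1 TPM in all 8 libraries, Csf1r (3.74 ± 1.12 TPM in controls, 2.60 ± 0.468 TPM in mutants) and Cd68 (5.31 ± 0.657 and 4.43 ± 0.715 TPM), overlapped between the groups. The limma test took in 8 of the 12 and 0 passed the threshold. Of these 8, 5 reached 1 TPM in more controls than mutants, and Cx3cr1 did so in controls alone, so the filter favoured markers that were lower in mutants and their count is not read further. The other 4 (Adgre1, Aif1, Fcgr1 and Ptprc) stayed under 1 TPM in every library. Neutrophil and mast cell markers summed to 9.29 to 12.7 TPM in controls and 6.67 to 12.96 TPM in mutants, with S100a8 and Ly6g at 0 in all libraries. Kit, with a mean of 9.55 TPM over all libraries, made up most of these sums, and 8 of the 9 markers never reached 1 TPM. Erythroid markers summed to 4537 to 7711 TPM and 4232 to 5855 TPM, with a median of -0.23. The part of these cells in the Cebpa, Cebpb and Nupr1 values was not tested, and in bulk tissue fewer cells of a type and less RNA per cell cannot be told apart. Endothelial (662.9 to 727.5 and 637.3 to 711.7 TPM), epicardial (254.7 to 293.0 and 252.8 to 282.3 TPM), mesenchymal (814.7 to 949.7 and 858.8 to 969.0 TPM) and hepatocyte markers (18.8 to 20.3 and 16.7 to 23.6 TPM) overlapped between controls and mutants. Trf, with a mean of 16.3 TPM, made up most of the hepatocyte sums, and 6 of the 8 hepatocyte markers never reached 1 TPM.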

How the data were processed

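RNA from ventricular heart tissue was sequenced in 4 control and 4 Atf4 mutant libraries. The authors deposited 1 table of TPM values per gene. Per the submitters' processing notes the tools included FastQC, Trim Galore 0.6.7, HISAT2 2.2.1, StringTie 2.2.1, featureCounts and DESeq2, with builds GRCm38 and mm10; the strand setting is not given in the sources used here. Columns were matched to libraries by name. Of the 52778 genes, 49593 matched RefSeq GRCm38.p6 by symbol and chromosome, 49590 of them with identical ends, including all 9 members; exon numbers are from GENCODE M21.

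Log2(TPM + 1) was fitted with limma 3.58.1 (R 4.3.3; empirical Bayes variances that follow the mean, two-sided) over genes that reached 1 TPM in 4 or more libraries, with Benjamini-Hochberg adjustment and a threshold of 0.05. The script was tested on simulated data. Residual SDs on the log2 scale had a median of 0.103. Single genes were also given an exact permutation test over the 70 assignments of the libraries (numpy 2.4.6). Ranks for Spearman's rho were taken with scipy 1.17.1. TPM keeps no read depth, so no counting error is given.

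The fit was repeated with median-of-ratios and quantile scaling, with the pseudocount lowered to 0.1, without the filter or with it raised to 5 TPM, and with TPM excluding mitochondrial and haemoglobin genes, no variance trend, library weights, a replicate block and each library left out. Named genes were all members, Atf4 and each list's genes past the threshold (at most 4) or else the gene with the smallest p. The 2 genes most like each member with a mean of at least 5 TPM were also named. Mars1, Mbd6, Spidr, Gm39087 and Gm45095 were named because they overlap members, and Actc1 and Myl2 as the most abundant markers. Sesn2, Dnajb9, Ddit4, Stc2 and Vegfa were named only to describe the lists. Cebpz, Trf, the other macrophage markers named and the ratios between members were chosen after values were seen. The members and lists were chosen with earlier results of these data known.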

Additional observations from a re-analysis of the deposited data

Results flagged for a closer look

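Within each group of 4 libraries, the highest and the lowest value of each member, of Atf4 and of each list were compared with the rest, in 58 groups, of which chance alone would set apart about 2.9 (1 in 20). In 3 groups 1 library stood apart. Trib2 in mutant 1 was 55.7 TPM, where the other mutants lay between 47.9 and 48.4 TPM. The mean log2(TPM + 1) of the acute phase and cytokine targets of C/EBPβ and C/EBPδ was 0.406 in control 4, where the other controls lay between 0.435 and 0.440. The mean log2(TPM + 1) of the hepatocyte markers was 0.789 in mutant 4, where the other mutants lay between 0.915 and 0.924.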

How the results depend on the processing

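No member passed the threshold under any alternative run. All members but Trib1 kept their direction: Cebpb ranged from 0.27 to 0.40 on the log2 scale, Cebpd from 0.04 to 0.14, Cebpg from -0.14 to -0.07, Ddit3 from -0.29 to -0.04, Trib2 from -0.12 to -0.05, Trib3 from -0.48 to -0.17, Cebpa from -0.37 to -0.10 and Nupr1 from -0.61 to -0.11. Trib1 reversed to 0.0174 without mutant 4, and leaving out each library gave -0.108 to 0.0174. Cebpb, Cebpd and Trib3 were not tested with the 5 TPM filter. The number of genes past the threshold, 6 of 15545, was 0 with no filter (35731 genes tested) and 0 with no variance trend, 7 with median-of-ratios scaling, and 0 to 3 with 1 library left out; it was 0 without control 2, 3 or 4, and the cause was not tested. Replicate numbers did not pair the libraries (correlations of same-numbered deviations -0.082 to 0.035). With the replicate block 0 genes passed the threshold. The count of members with the composite element was 1 with the 250 bases before the start alone, because the Trib3 match lies after the start. Of 152 list medians under the alternatives 149 moved by less than the spread between replicates; the other 3 were the acute phase targets with no filter (-0.00036) and the adipocyte and metabolic targets with the 5 TPM filter (-0.056) and without control 1 (-0.057). TPM without read depth, and 4 libraries a group, limit what can be told for genes near 1 TPM.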
